A study of Mus musculus with 18 samples.

Results

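Serpina1a, Serpina1b, Serpina1c, Serpina1d and Serpina1e are the mouse genes of alpha-1-antitrypsin, and they were followed here across uteri that differed in Tsc2 and in hormone state. They were found by their symbols, and the 5 rows were 5 of 25791 genes in the deposited table. They were chosen by their FPKM (a read density per gene) in intact uteri, which was known to differ between genotypes, so every value from intact uteri is given as a description with no test. RNA was sequenced from cross sections of uterus of mice aged 12 weeks, all on a mixed 129Sv and C57BL/6 background. KO mice were null for Tsc2 in the uterus, and WT mice carried the gene. The gene that drives the deletion, and hence the uterine cells that lost Tsc2, was not given in the labels. The 6 groups had 3 libraries each. KO ovx and WT ovx mice had their ovaries removed at 4 weeks. KO E2 and WT E2 mice had the same operation and then carried a pellet of 0.5 mg 17β-estradiol with a release of 90 days for 8 weeks. KO intact and WT intact mice kept their ovaries, and their estrous stage was not given.

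Alpha-1-antitrypsin is a secreted serpin, a protease inhibitor that presents an exposed loop, the reactive centre loop, as bait to serine proteases. After the protease cuts the loop, the inhibitor traps it. The protein is made mainly by hepatocytes and circulates in plasma, where it is the chief inhibitor of neutrophil elastase. In the mouse the gene has been duplicated into a cluster of copies, and the copies differ most in the reactive centre loop, which sets the proteases they bind.

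In GENCODE M21 models of mouse build GRCm38 the 5 genes lie on the minus strand of chromosome 12. Serpina1b spans 103728156-103830373, Serpina1d 103763594-103773592, Serpina1a 103853589-103863562, Serpina1c 103894926-103904887 and Serpina1e 103946931-103958975. Each has a coding sequence of 1239 bases in 4 coding exons. Over the 10 pairs of copies, 96.29% to 98.47% of coding bases were identical, with Serpina1a and Serpina1c the most alike and differing at 19 bases. At 86 of 1239 coding positions (6.94%) at least 1 copy differed from the others. Of these positions, 18 fell within coding bases 1104 to 1160, where they made up 31.6% of 57 bases. That stretch, which codes for part of the reactive centre loop and the residues after it, is shown because it is where the copies are easiest to tell apart. It is written 5′ to 3′ from GENCODE M21 transcripts on GRCm38, and capitals mark the positions at which the copies differ.
Serpina1a: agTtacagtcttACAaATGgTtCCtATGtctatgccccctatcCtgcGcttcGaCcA
Serpina1b: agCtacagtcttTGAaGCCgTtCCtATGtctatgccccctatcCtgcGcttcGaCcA
Serpina1c: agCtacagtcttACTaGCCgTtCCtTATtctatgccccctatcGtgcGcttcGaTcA
Serpina1d: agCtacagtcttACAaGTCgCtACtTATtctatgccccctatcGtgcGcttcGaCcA
Serpina1e: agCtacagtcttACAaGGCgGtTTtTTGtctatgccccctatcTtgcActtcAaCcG

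Outside such stretches the copies share long runs of letters, which bears on every value that follows. Of all runs of 50 bases in the transcript of Serpina1c, 73.3% were also present in another copy. The same share was 72.2% for Serpina1a, 48.0% for Serpina1d, 45.0% for Serpina1b and 37.9% for Serpina1e. At 100 bases the shares were 58.5% for Serpina1c, 58.0% for Serpina1a, 26.3% for Serpina1d, 24.6% for Serpina1b and 18.2% for Serpina1e. The read length was not given in the sources used here, nor how reads that matched several copies were divided.

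The promoters of the copies are also alike. The windows of 60 bases below, from RefSeq promoters on GRCm38.p6, minus strand, read 5′ to 3′ toward the gene and are shown so that the copies can be compared. Capitals mark the letters CCAAT, a common promoter element.
Serpina1a (chr12:103863641-103863700): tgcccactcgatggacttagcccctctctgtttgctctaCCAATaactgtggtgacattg
Serpina1b (chr12:103738216-103738275): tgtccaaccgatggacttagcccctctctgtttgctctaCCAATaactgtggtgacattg
Serpina1c (chr12:103904978-103905037): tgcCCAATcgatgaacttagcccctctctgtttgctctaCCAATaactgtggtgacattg
Serpina1d (chr12:103773650-103773709): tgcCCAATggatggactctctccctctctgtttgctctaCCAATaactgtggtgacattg
Serpina1e (chr12:103956976-103957035): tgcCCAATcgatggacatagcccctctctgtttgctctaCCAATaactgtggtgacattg
Against the Serpina1a window, the windows of Serpina1c and Serpina1e differed at 2 bases, that of Serpina1b at 3 and that of Serpina1d at 6. Letters were searched over whole promoter sequences of the same length, which are longer than these windows. CCAAT was found in 5 of 5 members and in 37.41% of 32851 mouse promoters. Each window was cut around the last CCAAT on the strand shown, so every window holds these letters. Serpina1c, Serpina1d and Serpina1e held them 2 times in the window, and Serpina1a and Serpina1b held them 1 time. The RefSeq starts behind these windows are not the ends of the GENCODE spans given above, and the windows of Serpina1b and Serpina1e lie within those spans. The letters TATAAA (13.62% of promoters), the estrogen response element, GGTCA and TGACC with 3 free bases between them (0.07%), and its half-site AGGTCA (16.26%) were in 0 of 5 members. Both strands were searched, and AGGTCA can overlap the longer element. A match or its absence describes these letters in the promoter stretch searched only.

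Levels are in FPKM, a read density scaled for transcript length and library size. Read totals were not given, so the depth behind each value is unknown, and the total FPKM of a library lay between 216032 and 591668. Tsc2 itself was lower on average in KO libraries. It ranged over 2.39 to 3.33 FPKM in KO ovx and 3.17 to 3.49 FPKM in WT ovx, over 1.75 to 2.42 FPKM in KO E2 and 2.38 to 2.73 FPKM in WT E2, and over 1.62 to 1.98 FPKM in KO intact and 2.04 to 2.51 FPKM in WT intact libraries. Only the intact groups did not overlap for Tsc2. KO ovx replicate 4 and KO E2 replicate 2 had the highest level of uterine epithelium genes in their groups, and WT intact replicate 4 had the most genes listed at 0 (7395, against 4228 to 6288 in the other libraries). Results that rest on 1 library are also given without it.

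In the uterus the 5 rows moved as 1 measurement. Over 18 libraries Pearson's r between pairs of members ran from 0.9987 to 1.0000 on log2(FPKM + 1). The points share libraries, and the copies share sequence, so this correlation does not describe 5 independent genes. In the 11 libraries in which the 5 members summed to at least 5 FPKM, Serpina1b stood at 0.956 to 0.967 of the FPKM of Serpina1e, and Serpina1c stood at 0.944 to 0.979. Serpina1a stood at 0.830 to 0.890 of Serpina1e in these libraries. The coefficient of variation of these ratios was 0.383%, 1.02% and 2.04%.

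Serpina1d was the member whose proportion changed. In the same 11 libraries its ratio to Serpina1e was lowest in WT ovx replicate 1 (0.560) and highest in WT intact replicate 2 (0.839), with a coefficient of variation of 10.9%. Over all 18 libraries, of which the others held at most 1.00 FPKM of Serpina1e, the highest ratio was 1.07 in KO ovx replicate 2. A further row, LOC100504190, is listed at exactly the position of Serpina1d in the table (chromosome 12, 105001796 to 105011843, on a build that is not GRCm38). Within the 11 libraries its ratio to Serpina1e was highest in WT ovx replicate 1 (0.829) and lowest in WT intact replicate 2 (0.279), the reverse of Serpina1d. Serpina1d and LOC100504190 added together stood at 1.12 to 1.39 of Serpina1e, with a coefficient of variation of 7.32%. Reads at that position may have been divided between both rows, which was not tested. Values of any single copy are uncertain for the same reason, and the results below are given for Serpina1e, whose level was highest of the 5 on the per-length scale in 16 of 18 libraries, with the range over members beside it.

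**Figure D1:**
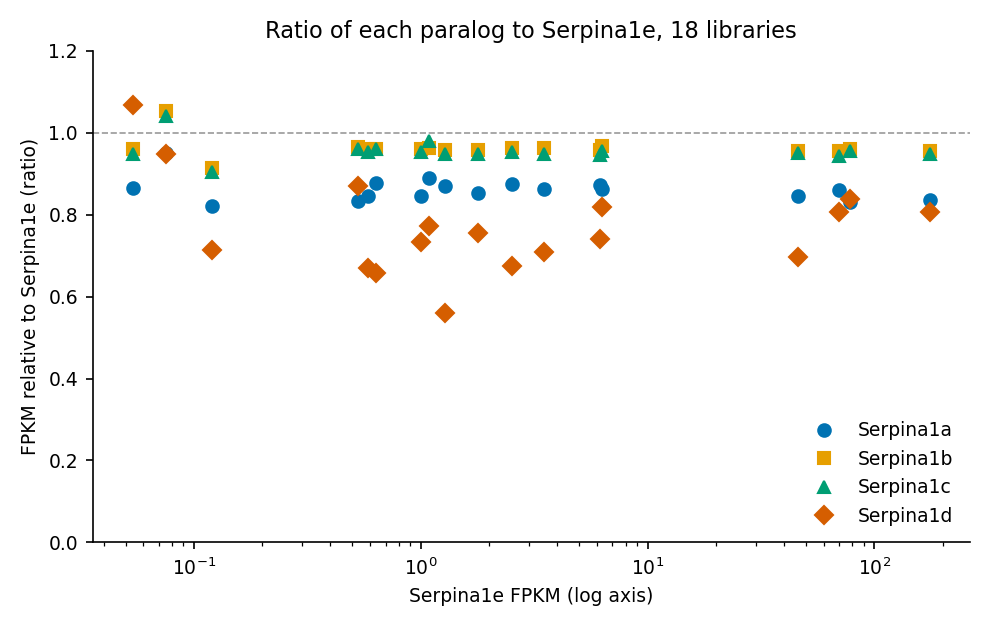
Ratio of the FPKM of Serpina1a, Serpina1b, Serpina1c and Serpina1d to that of Serpina1e (vertical axis) against the FPKM of Serpina1e (log axis) in each of 18 libraries. Serpina1b and Serpina1c form a flat band near 0.96 and 0.95 of Serpina1e, Serpina1a lies near 0.86, and Serpina1d spreads most.

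Levels differed widely between libraries and were high in few of them. Serpina1e stood at 0.633, 0.0537 and 6.17 FPKM in KO ovx replicates 1, 2 and 4, against 1.28, 0.120 and 0.0757 FPKM in WT ovx replicates 1, 2 and 3. KO E2 replicates 1, 2 and 3 held 1.79, 3.50 and 1.09 FPKM, against 69.7, 6.29 and 2.53 FPKM in WT E2 replicates 1, 2 and 5. KO intact replicates 1, 3 and 4 held 1.00, 0.529 and 0.587 FPKM, against 45.9, 78.0 and 175.5 FPKM in WT intact replicates 1, 2 and 4. The only libraries above 10 FPKM were the WT intact libraries and WT E2 replicate 1. In 6 libraries Serpina1e was below 1 FPKM: KO ovx replicates 1 and 2, WT ovx replicates 2 and 3 and KO intact replicates 3 and 4. Serpina1e reached 1 FPKM in 12 libraries, and the other members did so in 9 to 11. All 5 members passed the minimum for testing, 1 FPKM in at least 3 libraries, and would also have passed it without the WT intact libraries.

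**Figure D2:**
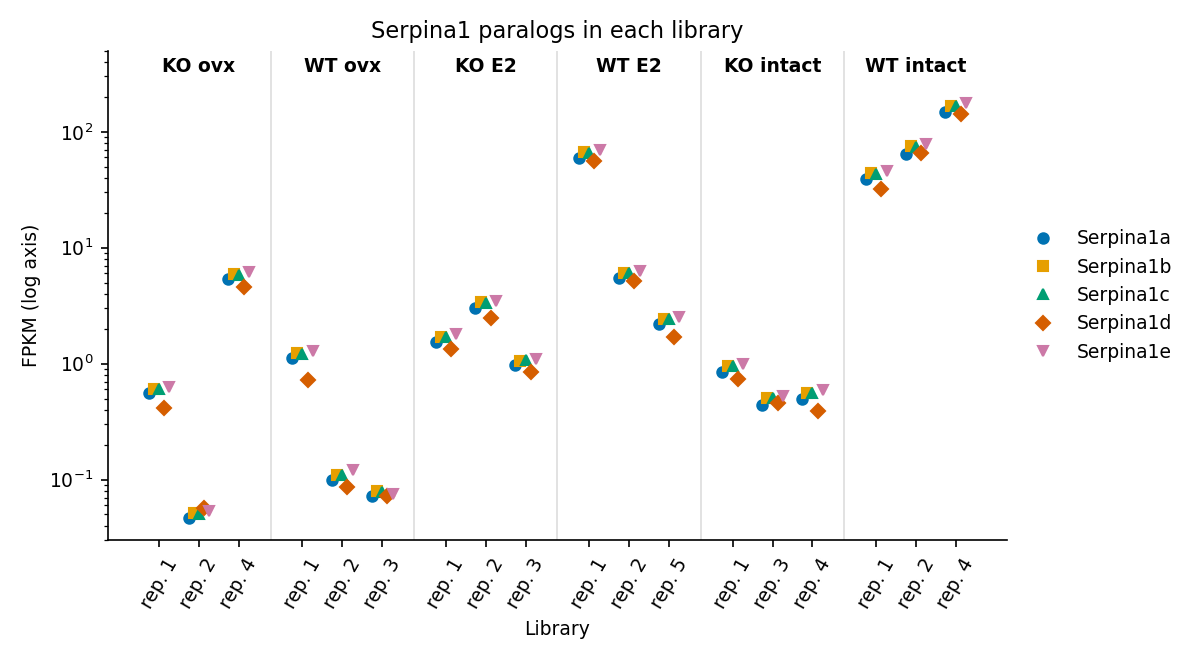
FPKM of the 5 Serpina1 members (log axis) in each library, by group and replicate number, 3 libraries a group. WT intact libraries and WT E2 replicate 1 stand highest, KO intact libraries lie between 0.39 and 1.00, and the 5 symbols stay together in every library.

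By mean level Serpina1e ran from WT intact (99.8 ± 67.5 FPKM, SD, n = 3) through WT E2 (26.2 ± 37.8), KO ovx (2.29 ± 3.38), KO E2 (2.12 ± 1.24) and KO intact (0.706 ± 0.258) to WT ovx (0.491 ± 0.681). Each group's range overlapped that of its neighbour in this order, except that the lowest KO E2 library (1.09 FPKM) lay just above the highest KO intact library (1.00 FPKM). In WT E2, KO ovx and WT ovx the SD exceeded the mean. In WT E2 the mean rested on replicate 1, without which it was 4.41 FPKM. In KO ovx it rested on replicate 4.

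Intact uteri gave the contrast for which the genes were chosen. Serpina1e averaged 0.706 ± 0.258 FPKM in KO intact and 99.8 ± 67.5 FPKM in WT intact libraries (SD, n = 3 each), 141-fold lower in KO. Serpina1a stood at 0.848, 0.440 and 0.496 FPKM in KO intact and at 38.8, 64.7 and 146.7 FPKM in WT intact libraries. Serpina1d stood at 0.734, 0.460 and 0.393 FPKM in KO intact and at 31.9, 65.4 and 141.7 FPKM in WT intact libraries. Every WT intact library lay far above every KO intact library, and the groups overlapped for no member. Genes of other tissue layers moved in this contrast too. The summed FPKM of 14 smooth muscle genes was 2609, 2426 and 846 in KO intact and 315, 776 and 198 in WT intact libraries, and 2 of 14 were higher in KO intact (limma). Of 10 endothelial genes, 3 were higher in KO intact. The part of tissue make-up in the Serpina1 difference was not tested. On log2(FPKM + 1) the Serpina1 differences were -5.48 to -5.68 over the 5 members. Of all genes tested, 2.18% passed the test in this contrast and 22.8% had libraries that did not overlap. Nothing is read from those shares, since this contrast picked the members.

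The uterine epithelium, the secretory lining of glands and lumen, was followed through 20 genes chosen as its markers, among them Epcam (an adhesion molecule), Cdh1 (E-cadherin) and keratins. Their FPKM summed to 424, 720 and 750 in KO intact and to 804, 1438 and 2569 in WT intact libraries, and 0 of 20 passed the test in either direction, with a median log2 difference of -1.03 beside -0.04 over all genes tested. The summed Serpina1 FPKM was 4.50, 2.45 and 2.60 in KO intact and 204, 358 and 798 in WT intact libraries. As a share of the epithelial sum this was 0.340% to 1.06% in KO intact and 24.9% to 31.1% in WT intact libraries. The part of epithelial content in the Serpina1 levels was not tested beyond these shares. In bulk tissue fewer cells of a type and less RNA per cell cannot be told apart.

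Libraries were also sorted by the steps of their lowest values, since libraries made alike share ratios of such steps. The number of sets was fixed at 4, and the labels name no such sets. The median share of matching steps was 7.33% within sets and 1.59% between them. These shares were also used for the sorting, so they do not show that the sets are real. Set 1 held replicates 1 and 4 of both intact groups and set 2 held KO intact replicate 3 with WT intact replicate 2. Averaged over members, the log2 difference between KO intact and WT intact was -5.59 in set 1 and -5.60 in set 2. Without WT intact replicate 4, the library with the most genes listed at 0, the mean difference was -5.08.

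Intact and ovariectomized uteri were set side by side within each genotype, again as a description. In WT, Serpina1e averaged 99.8 FPKM in intact and 0.491 FPKM in ovx libraries, and these libraries did not overlap, as for 61% of all genes tested. The ratio of means was lowest for Serpina1a (195) and highest for Serpina1d (274). In the same WT comparison 15 of 20 epithelial genes were higher in intact uteri (sums of 804 to 2569 FPKM in WT intact and 194 to 333 FPKM in WT ovx libraries), while 11 of 14 smooth muscle genes and 9 of 10 endothelial genes were lower (limma). Calls were common here: 6299 of 13898 genes tested passed, 4154 of them higher in WT intact. The part of these tissue layers in the Serpina1 levels was not tested. In KO, Serpina1e averaged 0.706 FPKM in intact and 2.29 FPKM in ovx libraries, and the groups overlapped. The mean log2 difference over members was 5.85 in WT and -0.44 in KO. Without KO ovx replicate 4 the KO value was 0.34. All intact libraries fell in sets 1 and 2 and all others in sets 3 and 4, so the presence of ovaries and the set cannot be told apart.

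All 5 members were higher with estradiol in WT uteri, in libraries that the choice of genes did not rest on. Serpina1e averaged 26.2 ± 37.8 FPKM in WT E2 and 0.491 ± 0.681 FPKM in WT ovx libraries (SD, n = 3 each), and the lowest WT E2 library (2.53 FPKM) lay above the highest WT ovx library (1.28 FPKM). The log2 change was 3.12 ± 0.89 (SE), with an adjusted p of 0.0102 by limma. Over the 5 members it was 2.97 to 3.12, with adjusted p from 0.0102 to 0.0115. Of all genes tested, 47.5% passed in this comparison and 32.3% were higher in WT E2, so calls were common in this comparison. Groups that did not overlap were found for 66.7% of genes, with 43.5% higher in WT E2.

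WT E2 replicate 1 carried most of that mean. The ratio of means for Serpina1e was 53.3 with all libraries and 8.98 without that library. The log2 change then fell to between 1.70 and 1.86 over the members, with adjusted p up to 0.0492. Averaged over members, the change was 1.11 in set 3 (1 WT E2 and 2 WT ovx libraries) and 4.24 in set 4 (2 and 1). The epithelial genes stood beside it: 16 of 20 rose in WT E2, beside 32.3% of all genes tested. Their sum was 1428 to 2253 FPKM in WT E2 and 194 to 333 FPKM in WT ovx libraries, and their median log2 change of 2.58 stood beside 0.24 for all genes. As a share of the epithelial sum, Serpina1 stood at 17.1%, 2.03% and 0.502% in WT E2 and at 2.86%, 0.157% and 0.116% in WT ovx libraries, so on this scale the groups overlapped.

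In KO uteri no change with estradiol passed the test. Serpina1e averaged 2.12 ± 1.24 FPKM in KO E2 and 2.29 ± 3.38 FPKM in KO ovx libraries (SD, n = 3 each), and the groups overlapped. The log2 change was 0.36 with a 95% interval from -1.54 to 2.26 (limma, adjusted p = 0.792), and over the 5 members adjusted p ran from 0.792 to 0.834. Of all genes tested, 27.1% passed in this comparison. KO ovx replicate 4 (6.17 FPKM) lay above every KO E2 library, and KO ovx replicates 1 (0.633 FPKM) and 2 (0.0537 FPKM) lay below every one. Without replicate 2 the change for Serpina1e was -0.20, and without replicate 4 it was 1.18, while without KO E2 replicate 2 it was 0.062. KO ovx replicate 4 also had the highest epithelial sum of its group, 1560 FPKM, against 816 and 586 FPKM in the other replicates. Its neutrophil genes summed to 389 FPKM, against 7.17 and 8.42 FPKM in those replicates, and its smooth muscle genes to 444 FPKM, against 1385 and 1615 FPKM. The part of these in its Serpina1 level was not tested.

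The difference between genotypes in the response to estradiol was tested directly. The KO response was lower than the WT response by 2.76 ± 1.26 (SE) on the log2 scale for Serpina1e, with an interval from -5.45 to -0.08 and a p of 0.0444 before and 0.166 after adjustment (limma). The difference was -2.68 for Serpina1a and Serpina1d and -2.74 for Serpina1b and Serpina1c, and 0 of 5 passed the test. Over all genes, 11% passed. Without WT E2 replicate 1 the value for Serpina1e was -1.50, with an adjusted p of 0.338 (limma). The interval before adjustment lay below 0 and the adjusted value missed the threshold, so the size of any such difference is poorly known.

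Among estradiol-treated mice, Serpina1e was 2.12 ± 1.24 FPKM in KO E2 and 26.2 ± 37.8 FPKM in WT E2 libraries (SD, n = 3 each), a log2 difference of -2.04 ± 0.89 (SE). The adjusted p was 0.187 by limma (0.0368 before adjustment), and 0 of 5 members passed, while 8.49% of all genes did. The groups overlapped, since KO E2 replicate 2 (3.50 FPKM) lay above WT E2 replicate 5 (2.53 FPKM). Without WT E2 replicate 1 the difference for Serpina1e was -0.77, and without KO E2 replicate 2 it was -2.34. Averaged over members it was -0.70 in set 3 (1 library each) and -2.67 in set 4 (2 each). Epithelial genes summed to 216, 1433 and 611 FPKM in KO E2 and to 1863, 1428 and 2253 FPKM in WT E2 libraries, and 6 of 20 were lower in KO E2. KO E2 replicate 2 held the highest epithelial sum and the highest Serpina1e of its group, while replicate 1, with the lowest sum, held more Serpina1e (1.79 FPKM) than replicate 3 (1.09 FPKM).

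Without estradiol, Serpina1e was 2.29 ± 3.38 FPKM in KO ovx and 0.491 ± 0.681 FPKM in WT ovx libraries (SD, n = 3 each), with overlapping groups. The log2 difference was 0.72 with a 95% interval from -1.18 to 2.62 (limma, adjusted p = 0.718), and 0 of 5 members passed, while 5.42% of all genes did. Without KO ovx replicate 4 the difference for Serpina1e was -0.094. Here 3 of 20 epithelial genes rose in KO ovx, namely Wfdc2 by 2.23, Cldn4 by 2.16 and Spint1 by 1.76 on the log2 scale, and each call ended without any 1 of 4 or 5 of the 6 libraries, with adjusted p up to 0.192 (limma). The epithelial sum was 586 to 1560 FPKM in KO ovx and 194 to 333 FPKM in WT ovx libraries.

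**Figure D3:**
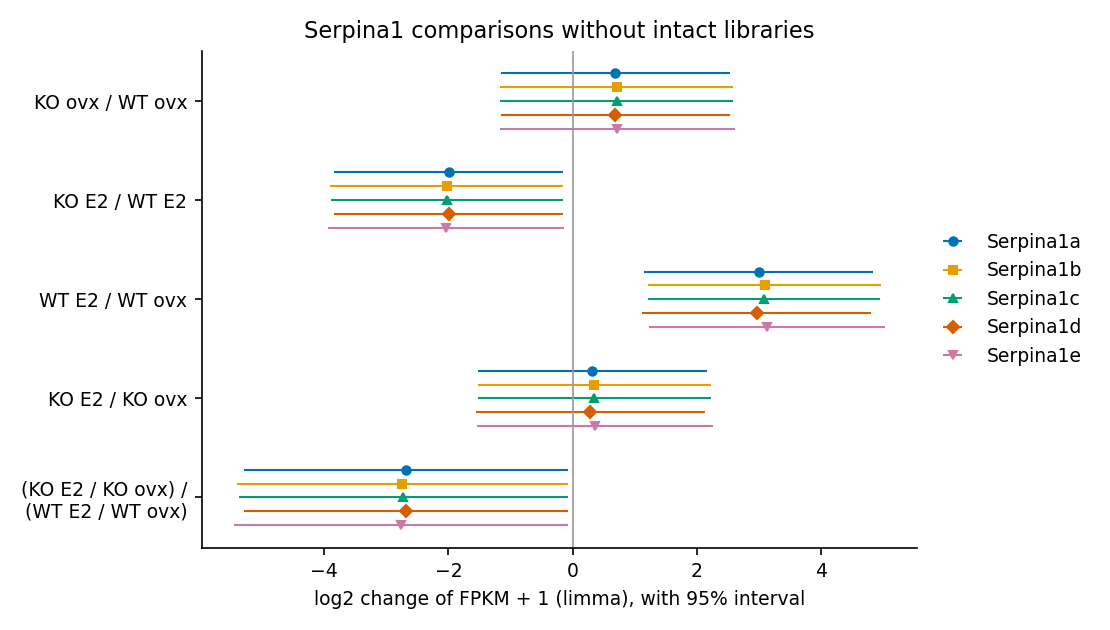
Log2 change of FPKM + 1 from limma for each Serpina1 member (points) with its 95% interval (lines) in the 4 comparisons that use no intact library and in the difference between genotypes in the response to estradiol. Intervals are before adjustment over genes. Only the comparison of WT E2 with WT ovx passed after adjustment, with changes of 2.97 to 3.12.

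**Figure D4:**
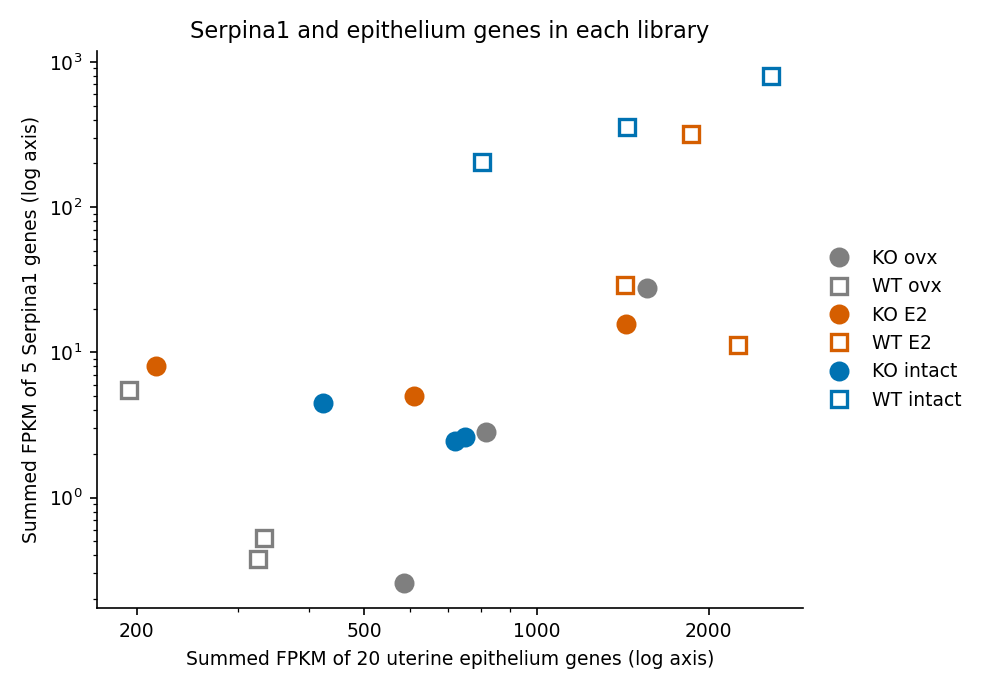
Summed FPKM of the 5 Serpina1 members against summed FPKM of 20 uterine epithelium genes in each library, both on log axes, with filled circles for KO and open squares for WT. WT intact libraries and WT E2 replicate 1 lie highest on the vertical axis, and KO intact libraries lie between 2.45 and 4.50 at epithelial sums from 424 to 750.

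Alpha-1-antitrypsin has relatives in the same gene cluster and in the same clade of serpins. Of 22 such genes listed, 19 were in the table and 11 could be tested. In KO E2 against WT E2 libraries 10 of 11 were higher and 1 was lower, with a median log2 difference of 2.58 beside -0.05 over all genes. Of all genes tested, 8.49% passed in this comparison in either direction. With the replicate number as a block in the model, 0 Serpina3 rows passed in it. The 10 were 9 rows of the Serpina3 family, which are relatives of human antichymotrypsin, and Agt, which encodes angiotensinogen. In WT E2 against WT ovx libraries 7 of 11 rose, beside 32.3% of all genes tested. In KO E2 against KO ovx libraries 10 of 11 rose, beside 15.9% of all genes tested. In KO ovx against WT ovx libraries 0 of 11 passed in either direction, beside 5.42% of all genes tested. The Serpina3 rows are near copies of each other too, so their count does not stand for that many independent genes.

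Serpina3n, an acute-phase inhibitor, stood at 167, 24.9 and 128 FPKM in KO E2 and at 4.51, 20.3 and 5.89 FPKM in WT E2 libraries. All KO E2 libraries lay above all WT E2 libraries, and the log2 difference was 3.15 ± 0.63 (SE, limma adjusted p = 0.00672). Its response to estradiol was larger in KO by 3.06 ± 0.89 (adjusted p = 0.0402), a call that ended without any 1 of 10 of the 12 libraries. Over the clade, 9 of 11 genes passed that test of the response, beside 11% of all genes tested. The count ran from 0 to 10 when single libraries were left out. The lowest count, 0, was reached without WT E2 replicate 1, WT E2 replicate 5 or KO E2 replicate 1.

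Serpina9, also known as centerin and known from germinal centre B cells, was the 1 clade member lower in KO E2. It stood at 0.171, 10.2 and 0.00994 FPKM in KO E2 and at 24.6, 22.6 and 32.0 FPKM in WT E2 libraries. The WT E2 libraries were alike, and the KO E2 libraries were all lower and spread widely, with replicate 2 highest. The log2 difference was -3.52 ± 0.88 (SE, limma adjusted p = 0.0227), and the call ended without WT E2 replicates 1 or 5 or KO E2 replicates 1 or 3, with adjusted p up to 0.120. In WT uteri Serpina9 rose with estradiol by 4.71 ± 0.88 (adjusted p = 0.000759), with 0.0114, 0.0355 and 0.0732 FPKM in WT ovx libraries. In intact uteri it held 3.89, 0.483 and 1.43 FPKM in KO and 0.515, 0.562 and 16.1 FPKM in WT libraries, which overlapped. Serpina1f, a further gene of the cluster, was at most 0.0181 FPKM in any library.

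**Figure D5:**
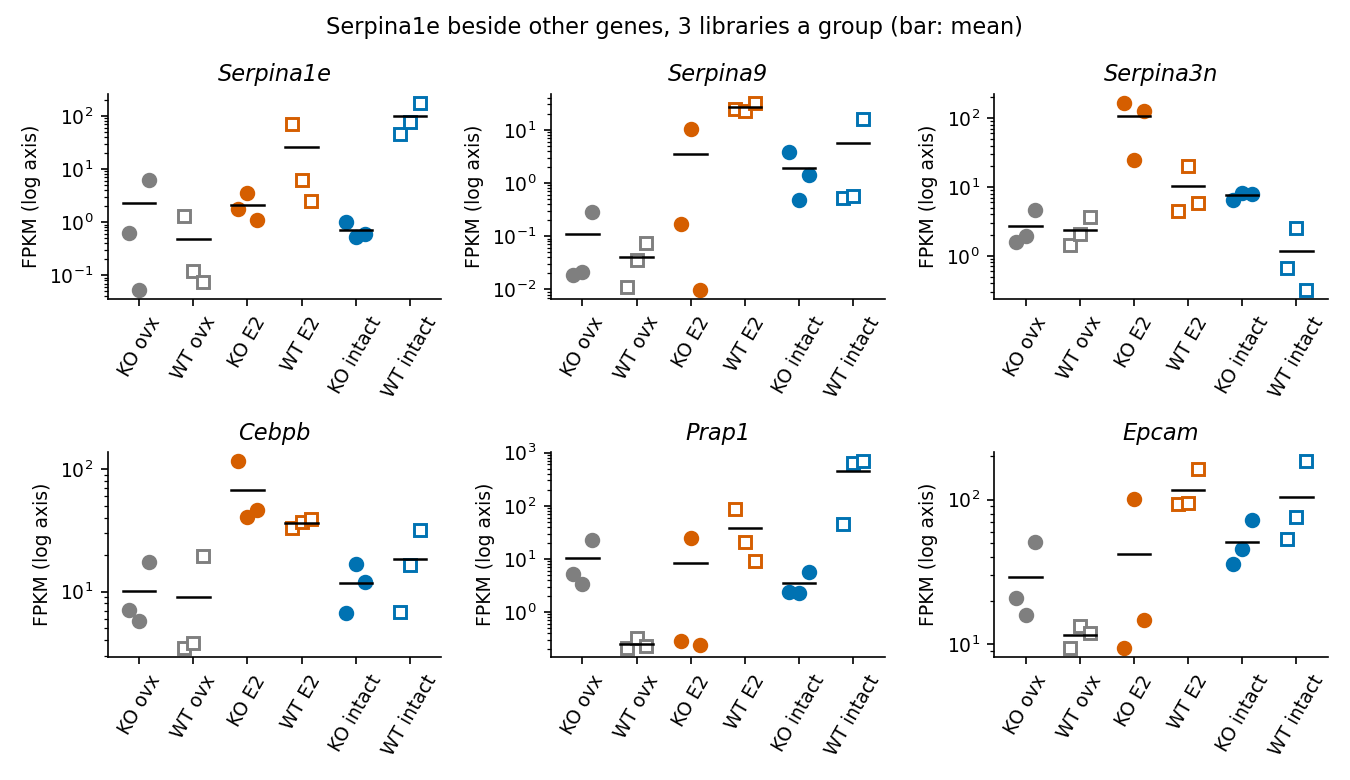
FPKM in each library (points, log axes) with the group mean (bar) for Serpina1e, Serpina9, Serpina3n, Cebpb, Prap1 and Epcam, filled for KO and open for WT, 3 libraries a group. Serpina1e and Prap1 are highest in WT intact, Serpina9 in WT E2 and Serpina3n in KO E2, by mean FPKM.

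The proteases that alpha-1-antitrypsin is known to inhibit, or that are of the same trypsin-like or elastase-like kind, were listed as 14 genes, of which 9 could be tested. The neutrophil enzymes moved with KO E2. Elane, which encodes neutrophil elastase, stood at 6.68, 1.78 and 3.52 FPKM in KO E2, and in WT E2 it was listed at 0 in replicate 1 and stood at 0.312 and 0.0551 FPKM in the others, a log2 difference of 2.04 ± 0.25 (SE, limma adjusted p = 0.00033). Prtn3, which encodes proteinase 3, stood at 17.9, 2.79 and 8.10 FPKM in KO E2 and at 0.343, 0.433 and 0.212 FPKM in WT E2 libraries, a difference of 2.71 ± 0.36 (adjusted p = 0.000558). KO E2 libraries were above WT E2 libraries for both genes. Elane and Prtn3 reached 1 FPKM in KO E2 libraries only, so they could be tested only through that group. Their calls in comparisons with KO E2 are therefore not independent of the minimum for testing. Both are also on the list of 14 neutrophil genes, of which 13 could be tested and 9 were higher in KO E2 than in WT E2. Of all genes tested, 8.49% passed in that comparison in either direction. Elane and Prtn3 are among the 9. Of the 14 genes, 6 were below 1 FPKM in every WT E2 library, and 0 were so in KO E2. The count of 9 is therefore not independent of the minimum for testing either. That list's sum was 16164, 6199 and 1548 FPKM in KO E2 and 3737, 6037 and 5476 FPKM in WT E2 libraries, so the sums overlapped.

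Of the 9 proteases, Tmprss2 and Prss8 were lower in KO E2 than in WT E2 libraries. Tmprss2, a transmembrane protease, stood at 3.39, 15.6 and 17.4 FPKM in KO E2 and at 23.2, 27.9 and 42.0 FPKM in WT E2 libraries (log2 difference -1.50 ± 0.44, SE, limma adjusted p = 0.0468). Prss8, which encodes prostasin, stood at 0.648, 3.79 and 3.64 FPKM in KO E2 and at 10.7, 8.17 and 10.3 FPKM in WT E2 libraries (-1.68 ± 0.39, adjusted p = 0.0155). The groups overlapped for neither gene. The call ended without WT E2 replicates 1, 2 or 5 or KO E2 replicate 1 for Tmprss2, and without WT E2 replicates 1 or 5 or KO E2 replicate 1 for Prss8. Plau, which encodes urokinase, was the third protease higher in KO E2 (0.92 ± 0.27, adjusted p = 0.0498), a call that ended without any 1 of 4 of the 6 libraries, so that 3 of 9 were higher and 2 lower. In WT E2 against WT ovx libraries 4 of 9 rose, beside 32.3% of all genes tested, namely Tmprss2, St14 (matriptase), Plau and Cela1, an elastase. In KO E2 against KO ovx libraries 4 of 9 rose (Prtn3, Plau, Elane and Cela1), beside 15.9% of all genes tested. In the same comparison Prss8 fell by 1.98 on the log2 scale. Prtn3 and Elane, which could be tested only through KO E2 libraries, are in this 4 of 9 and in the 3 of 9 above. Neither count is therefore independent of the minimum for testing. Tmprss2 was the 1 of 9 that passed in KO ovx against WT ovx libraries, where it was higher by 2.20 ± 0.44 (adjusted p = 0.0113), a call that ended without WT ovx replicate 1 or KO ovx replicate 4.

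Of 14 genes known to control alpha-1-antitrypsin in liver or in the acute-phase response, 9 could be tested. Hnf4a, the master factor of hepatocytes, was at most 0.065 FPKM in any library. Between genotypes 0 of 9 passed in the ovx state, the E2 state or the response to estradiol. Of all genes tested, 5.42%, 8.49% and 11% passed in these, so 0 of 9 is not read as an absence of change.

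Of the 9 regulators, only Cebpb and Osmr passed as higher with estradiol in both genotypes. In WT E2 against WT ovx libraries 4 of 9 regulators rose, beside 32.3% of all genes tested, with log2 changes of 2.29 for Cebpb and 1.61 for Cebpd (C/EBP factors), 1.10 for Stat3 (the transducer of interleukin 6 signals) and 1.06 for Osmr (the oncostatin M receptor). In KO E2 against KO ovx libraries 4 of 9 rose, beside 15.9% of all genes tested, with changes of 2.62 for Cebpb, 1.99 for Cebpa, 1.89 for Osm (oncostatin M) and 1.75 for Osmr. Cebpb stood at 116, 41.0 and 46.2 FPKM in KO E2 and at 7.05, 5.70 and 17.3 FPKM in KO ovx libraries. Serpina1 did not pass in that same KO comparison. In WT the gain of Osmr ended without any 1 of 5 of the 6 libraries, with adjusted p up to 0.137 (limma), and that of Cebpd without any 1 of 4. In KO the gain of Cebpa ended without any 1 of 3. Osm reached 1 FPKM in E2 libraries only (9.39 and 2.54 FPKM in KO E2 and 1.46 FPKM in WT E2). It could be tested only through them, so its call in KO is not independent of the minimum for testing.

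Genes for folding, disposal and export of alpha-1-antitrypsin in the endoplasmic reticulum were listed as 20 genes, and all could be tested. In WT E2 against WT ovx libraries 13 of 20 rose and 0 fell, with a median log2 change of 1.01 beside 0.24 over all genes. Of all genes tested, 32.3% rose in this comparison. Examples were Pdia3 (a disulfide isomerase, 1.89), Calr (calreticulin, a chaperone, 1.62), Surf4 (a cargo receptor, 1.56) and Hspa5 (the chaperone BiP, 1.43). In KO E2 against KO ovx libraries 6 of 20 rose, beside 15.9% of all genes tested, with 1.48 for Edem1 (which sends misfolded protein to disposal) and 1.39 for Surf4. Between genotypes 0 of 20 passed in the ovx state, the E2 state or the response to estradiol. Over all genes tested, 5.42%, 8.49% and 11% passed in these, so 0 of 20 is not read as an absence of change. Of 6 genes of clearance receptors and their partners, 5 could be tested, and Lrp1, which takes up serpin-protease complexes, was higher in KO E2 (19.3, 3.20 and 9.81 FPKM) than in WT E2 libraries (2.19, 2.72 and 1.13 FPKM), by 1.73 ± 0.51 (adjusted p = 0.0465), a call that ended without any 1 of 5 of the 6 libraries. Sort1, which encodes sortilin, was higher in KO ovx than in WT ovx libraries by 1.41 ± 0.35 (adjusted p = 0.0327), and this call likewise ended without any 1 of 5.

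Since hepatocytes are the main source of alpha-1-antitrypsin, 20 genes of hepatocytes and plasma proteins were examined, and 4 reached the minimum for testing. Alb, which encodes albumin, was at most 0.0945 FPKM in any library and listed at 0 in all WT intact and WT E2 libraries. Apoa1, an apolipoprotein of plasma, was listed at 0 in the same 6 libraries. Ttr, which encodes transthyretin, was at most 0.0144 FPKM in those 6 libraries and reached 10.7 FPKM in KO ovx replicate 4. Alb, Apoa1 and Ttr were named after their values were seen. Of the 20 genes, 6 were listed at 0 in every WT intact library and 5 in every WT E2 library. Trf, which encodes transferrin, stood at 4.09, 8.99 and 0.805 FPKM in WT intact libraries. The part of hepatocyte RNA in the Serpina1 levels was not tested. In intact uteri the sum of the list was 4.68 to 7.96 FPKM in KO and 1.77 to 12.1 FPKM in WT libraries. In ovx uteri it was 5.53, 4.89 and 48.6 FPKM in KO and 6.35 to 7.49 FPKM in WT libraries, with KO ovx replicate 4 apart from the rest.

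With estradiol the sum of the hepatocyte list was carried by Hp (haptoglobin, an acute-phase protein also made outside liver), which stood at 1783, 57.6 and 1057 FPKM in KO E2 and at 36.7, 242 and 379 FPKM in WT E2 libraries. Against ovx libraries Hp rose by 6.94 in KO and by 6.77 in WT, and Trf (transferrin) rose by 3.61 in KO and 2.51 in WT. Rbp4, a retinol carrier, was higher in KO E2 than in WT E2 libraries by 1.99 ± 0.46 (SE, limma adjusted p = 0.0152), a call that ended without any 1 of 3 of the 6 libraries. WT E2 replicate 1, the highest E2 library for Serpina1, was the lowest for Hp of all E2 libraries.

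The genes whose pattern was most like that of Serpina1 were taken as the 8 with the highest Pearson's r over 18 libraries with the mean log2(FPKM + 1) of the members. The points share libraries, and the high WT intact libraries weigh on every value. LOC100504190, the row at the position of Serpina1d, came first with r = 0.993. Prap1, which encodes a secreted protein of uterine and intestinal epithelium, came next with r = 0.913 and Spearman's rho = 0.769. It was followed by Sgms2 (a sphingomyelin synthase, 0.891), Tmem54 (0.874), Ntan1 (an asparagine amidase, 0.863), Prkra (an activator of the kinase PKR, 0.857), Alkbh1 (a demethylase of nucleic acids, 0.854) and Gm3142 (0.853). Without WT intact replicates 2 and 4, the libraries farthest from the median, r was 0.826 for Prap1, 0.793 for Sgms2 and 0.754 for Gm3142. Over the 12 ovx and E2 libraries alone, r was 0.815 for Prap1, 0.741 for Sgms2 and 0.665 for Alkbh1.

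Prap1 stood at 2.33, 2.25 and 5.73 FPKM in KO intact and at 44.6, 632 and 688 FPKM in WT intact libraries. It differed from Serpina1e in KO ovx libraries, where it held 5.26, 3.38 and 23.0 FPKM, above all WT ovx libraries (0.207, 0.319 and 0.228 FPKM). Sgms2 stood at 3.01, 1.80 and 3.93 FPKM in KO intact and at 14.3, 16.4 and 40.7 FPKM in WT intact libraries. Gm3142 stood at 0.284, 0.181 and 0.251 FPKM in KO intact and at 4.36, 7.98 and 13.8 FPKM in WT intact libraries. The WT intact libraries weigh on the likeness that chose these genes, so nothing is read from their levels in intact uteri.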

How the data were processed

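RNA of mouse uterus was measured in 18 libraries, 3 in each of 6 groups. The authors deposited FPKM values per gene, made with Cufflinks 2.0.2 and Cuffdiff per the submitters' processing notes. The sources used here do not give the aligner, annotation, genome build or read length, and the table's gene positions are not those of GRCm38. FPKM hold no counts, so no counting interval could be given. An FPKM of a copied gene depends on how shared reads were divided.

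From these values log2(FPKM + 1) was computed, a scale that understates changes of low genes. Genes with at least 1 FPKM in at least 3 libraries were tested, which left 13898. The model, with 1 mean for each group, used limma 3.58.1 (R 4.3.3) on the 18 libraries together, with moderated two-sided tests and an eBayes trend. Benjamini-Hochberg adjustment covered every gene tested, and 0.05 was the threshold. The script was checked on simulated data with known changes. These were placed only in genes of small spread, so the check does not cover genes as variable as Serpina1. Levels are mean ± SD over 3 libraries. The labels do not say whether libraries came from separate animals, so p-values measure the spread between these libraries only. Replicate numbers are from the titles, where a compound number on 1 WT intact library was read as replicate 4. No pair of libraries held identical values.

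The members and the gene lists were chosen with earlier results of these data known. Some regulators are not reported here and are in no count. Genes named from lists were the members, the 8 most alike in pattern, and up to 4 per list and comparison with the largest change among those that passed, beside the clade A serpins, regulators and proteases, which could be named with their levels. Named without such a rule, after their values were seen, were Alb, Apoa1, Ttr and single genes given as examples. Alternatives were 2 smaller pseudocounts, no minimum, median-ratio scaling, quantile normalization, the 12 ovx and E2 libraries alone, no trend, the sets as a term, the replicate number as a block, and each library left out in turn. With a library left out, the list of genes tested was held fixed. Coding sequences were aligned with mafft 7.526, and figures drawn in Python 3.11.15.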

Additional observations from a re-analysis of the deposited data

Results flagged for a closer look

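The genes below are those of the serpin and protease lists, named by rule, whose response to estradiol differed between KO and WT by the interaction test in limma. Values are the KO response minus the WT response on the log2 scale. Serpina3n (3.06), Serpina3k (2.80), Serpina3m (2.78) and Serpina3c (2.74) rose more in KO, and these rows are near copies of each other. These calls ended without any 1 of 10 libraries for Serpina3n and any 1 of 8 for the other rows, out of 12. Prtn3 (2.64) also rose more in KO. It passed without each library in turn, but the list of genes tested was held fixed in those runs. Prtn3 reached 1 FPKM in KO E2 libraries only. Without any of these it would not have met the minimum of 3 libraries. Tmprss2 (-3.70) and Prss8 (-2.82) had a lower response in KO and passed without each library in turn. St14 (-2.95) had a lower response in KO, and its call ended without any 1 of 9 libraries. Groups held 3 libraries, so no group was tested for a single outlying library.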

How the results depend on the processing

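The count of Serpina1 members that passed was the same under every alternative run: 5 of 5 in WT E2 against WT ovx, and 0 of 5 in the other 3 tested comparisons and in the difference between genotypes. The 5 rows moved as 1 measurement. In WT E2 against WT ovx 47.5% of all genes tested passed, and 32.3% were higher in WT E2. Over the alternatives, adjusted p of the members there reached 0.0492 (limma), close to the threshold. With the replicate block (replicate numbers, which the labels do not give as pairs, with 2 shared numbers and correlations of -0.108 to 0.339), the counts were 0, 0, 5, 0 and 0, and adjusted p reached at most 0.00376 in WT E2 against WT ovx. The direction of comparisons that did not pass was not stable. KO ovx against WT ovx changed sign without KO ovx replicate 4: over libraries left out it ran from -0.087 to 1.22 for Serpina1a, -0.093 to 1.26 for Serpina1b, -0.089 to 1.26 for Serpina1c, -0.041 to 1.16 for Serpina1d and -0.094 to 1.29 for Serpina1e. KO E2 against KO ovx changed sign without KO ovx replicate 2 (ranges -0.22 to 1.09, -0.20 to 1.15, -0.20 to 1.15, -0.19 to 1.01 and -0.20 to 1.18 for Serpina1a to Serpina1e), and with the sets as a term (-0.32, -0.30, -0.30, -0.41 and -0.30). Of the descriptive levels, KO intact against KO ovx ran from -0.98 to 0.34 over libraries left out. With a pseudocount of 0.1, KO intact against WT intact was -6.76 and WT intact against WT ovx 7.79. The cause was not tested. Over all genes, calls in KO ovx against WT ovx numbered 753, against 1978 with quantile normalization, 429 with the sets as a term, 399 with the block and 149 to 912 over libraries left out. In KO E2 against WT E2 they numbered 1180, against 624 with a pseudocount of 0.01, 384 with the block and 517 to 2235 over libraries left out. For the difference between genotypes they numbered 1529, against 1017 with a pseudocount of 0.01, 136 with the block and 520 to 2383 over libraries left out. In KO E2 against KO ovx they numbered 3767, against 2370 to 4326 over libraries left out. In KO intact against WT intact they numbered 303, against 535 with quantile normalization, 545 with the block and 66 to 674 over libraries left out. In KO intact against KO ovx they numbered 2206, against 3673 with quantile normalization and 1167 to 2700 over libraries left out. The share of calls that were higher in WT E2 than in WT ovx was 67.9%, against 57.4% with median-ratio scaling and 43.6% with quantile normalization, which moved the median gene by -0.13 and -0.29. With the block, 0 Serpina3 rows passed in KO E2 against WT E2. Of the other results, 2311 kept direction and side, 320 lost the call, 113 counts moved and 15 changed sign.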
